A study of Mus musculus with 9 samples.

Results

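The comparison is between BV2 cells that received a single 10 Gy dose of X-rays and BV2 cells that were not irradiated, across all genes of the count table, with the weight on what lay beyond the interferon and histone genes. Its members are 6 of the 9 libraries of the series, 3 per group, chosen by the group named in their titles. BV2 is an immortalised line of mouse microglia, labelled WT, and all replicates come from this 1 line. Control cells were given vehicle, 20% hydroxypropyl-β-cyclodextrin (HP-β-CD), and no radiation. Irradiated cells were given the same vehicle 30 min before 10 Gy. The remaining 3 libraries come from cells given 10 µM of a man-made steroid, 5α-androst-3β,5α,6β-triol, 30 min before 10 Gy, and the treatment labels of their replicates 2 and 3 spell that compound differently from the titles. They share the controls and the dose, so their values are set beside the others as a description. How long after the dose RNA was taken is not stated in the labels. They do not say either whether the replicates were grown separately, so every p-value refers to the spread among these libraries, and that spread may be technical.

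Ionising radiation breaks DNA, and cells answer with repair, cell cycle arrest and, where DNA reaches the cytosol, an interferon response. Microglia are the phagocytes of the brain. They carry dense sets of surface receptors, lysosomes and secretory machinery, and they change these sets when they are activated. A small change can be told from replicate spread only where a gene has many reads.

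Of the 21951 genes of the table, 11295 had enough reads to be tested, and 373 genes of the table were on the interferon and histone lists. On those lists 229 genes were tested, 191 of them rose (83.4%) and 12 fell (5.24%). The other 11066 tested genes are described here. Total counts ran from 14118475 to 17705424 in control and from 13879062 to 15192203 in irradiated libraries. The biological coefficient of variation, the spread between replicates beyond counting noise, was 3.18%. Of 15 tested markers of microglia and macrophages 11 fell and 0 rose, with a median log2 fold change of -0.37. Over all tested genes 22.1% rose and 22.2% fell (edgeR, adjusted p under 0.05). The list of 16 held 3580 to 3820 RPM (reads per 1000000 reads of the library) in control and 2960 to 3070 RPM in irradiated libraries. These levels are shares of a library's reads. In bulk RNA a change in the share of microglial cells cannot be told apart from a change per cell. Csf1r, the receptor for colony-stimulating factor 1, had 7551, 9018 and 7615 reads in control and 4822, 4624 and 5059 reads in irradiated libraries (log2 fold change -0.65, standard error, SE, 0.034). P2ry12 had 6 to 14 reads, Tmem119 had 16 to 25, and Sall1, a factor that defines brain microglia, had 0 in all 6, so these markers of microglia in the brain were low or absent in both groups.

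Irradiation moved a large part of the measured genes by small amounts. Outside the interferon and histone lists 2307 genes rose (20.8%) and 2493 fell (22.5%), or 43.4% in either direction. Of these 4800 genes, 2241 moved by less than 0.25 on the log2 scale, 1720 by 0.25 to 0.5, 486 by 0.5 to 1, and 353 by 1 or more. Among called genes the direction differed between size classes. Of the genes that moved by 0.25 to 0.5, 38.9% rose. Of those that moved at least 2-fold, 95.5% rose, 337 against 16. Nearly all of these large rises were in genes at low levels, as the classes of level below show. Some low genes were tested only because they were high in a group given radiation. The 95.5% is therefore not a measure of the direction of large changes in general. The balance of the small changes depended on the scaling of the libraries. The share of calls that were higher was 48.1% with TMM scaling, 56.4% with upper quartile scaling, 58.3% with library totals alone and 55.2% after a correction for GC content chosen after seeing the data. The median log2 fold change of all tested genes was 0.0067 with TMM and at most 0.0418 under any of these scalings.

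Among called genes the median size of the change fell as the level of the gene rose. The smallest change called also fell up to 1000 CPM, and these trends cannot be told apart here. Levels are given as CPM, counts per 1000000 counts of the library after TMM scaling. Below a mean of 1 CPM, 206 of 587 tested genes rose and 6 fell, and the median size of a called change was 1.77 on the log2 scale. Between 1 and 10 CPM, 408 of 1925 rose and 122 fell, with a median size of 0.72. Between 10 and 100 CPM, 1049 of 5983 rose and 1440 fell, with a median size of 0.26. From 100 to 1000 CPM, 626 of 2495 rose and 891 fell, and from 1000 CPM upward 18 of 76 rose and 34 fell, with median sizes of 0.19 and 0.17. The precision moved with the level. The median SE of the log2 fold change was 0.466 below 1 CPM and 0.038 between 100 and 1000 CPM, and the smallest change called was 0.97 in the first class and 0.069 in the second. A small change in a gene below 1 CPM was therefore not detectable at this depth. Changes of 2-fold could be called in every class above 1 CPM. At least 2-fold rises numbered 199 below 1 CPM, 133 between 1 and 10 CPM, 4 between 10 and 100 CPM and 1 from 100 to 1000 CPM, and falls of that size numbered 6, 6, 3 and 1. From 10 CPM upward the few changes of that size were thus close to balanced. The lowest class also holds genes that passed the filter on reads only through a group in which they were high, so its share of rises is not a measure of all genes at that level.

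**Figure D1:**
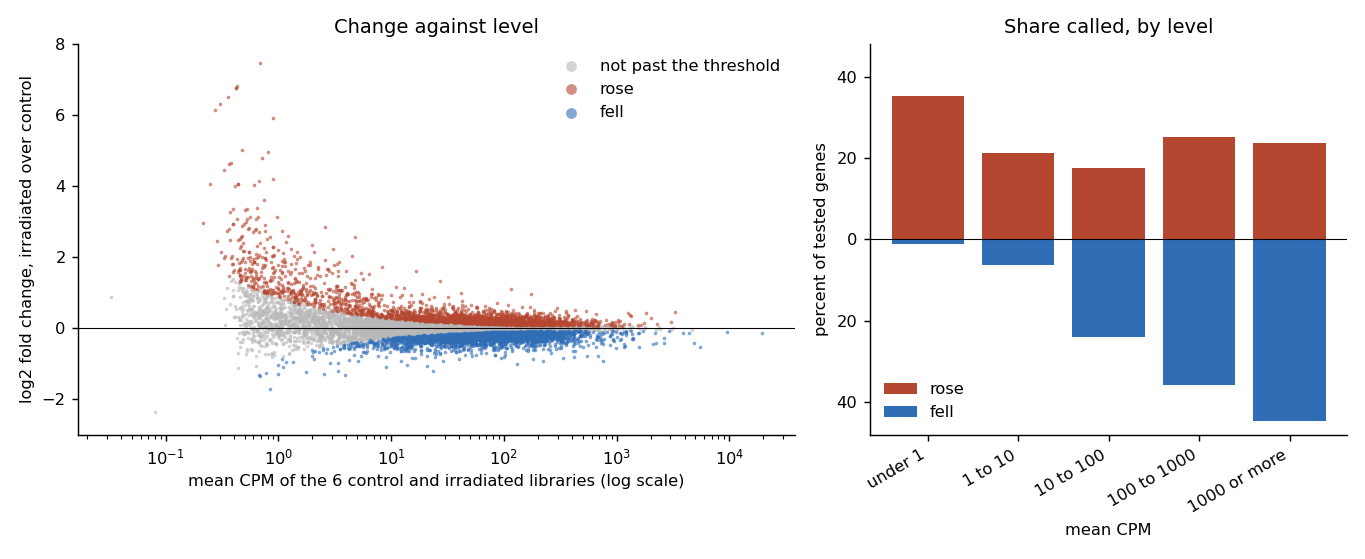
Left, the log2 fold change of irradiated over control against the mean CPM of the 6 libraries (log axis) for the 11066 tested genes outside the interferon and histone lists, where the fitted values of genes without a control read depend on the prior count of the fit. Right, the percent of tested genes that rose (above 0) and fell (below 0) in each level class. Large rises lie below 10 CPM, and above 10 CPM almost all points lie within 1 of 0, with more falls than rises under TMM scaling.

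Well expressed genes, those with a mean of at least 100 CPM over the 6 libraries, carried the best resolved part of the response. Of 2571 such genes 644 rose (25.0%) and 925 fell (36.0%). That excess of falls depended on the scaling: the numbers were 797 and 804 with upper quartile scaling, 845 and 778 with library totals, and 766 and 855 with the GC correction. Only C3 rose and only Mmp19 fell by at least 2-fold in this group.

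C3, the central component of complement (chr17:57203970-57228136 on GRCm38), had 74.5, 74.8 and 69.5 CPM in control replicates 1 to 3 and 151, 165 and 157 CPM in irradiated replicates 1 to 3. The rise was about a doubling (log2 fold change 1.11, SE 0.045, edgeR adjusted p = 2.6e-23). The 8 rises and 8 falls named at this level were picked among genes whose control and irradiated groups did not overlap. Hmox1, which breaks down haem (chr8:75093621-75100589), had 120, 121 and 113 CPM in control and 232, 237 and 220 CPM in irradiated libraries (0.96, SE 0.039). The other 6 genes of the 8 with the largest rise went up by 0.51 to 0.66. Slc16a1, the monocarboxylate transporter MCT1 that carries lactate, had 113, 113 and 119 CPM in control and 174, 176 and 175 CPM in irradiated libraries (0.60, SE 0.038). The irradiated libraries differed from each other by about 1 CPM in this gene. Acod1, which makes itaconate in activated macrophages, rose by 0.60 (SE 0.043), and Akr1b3, aldose reductase, by 0.51 (SE 0.046). Fam208b, a relative of a subunit of the HUSH silencing complex, rose by 0.66 (SE 0.045). Ifrd1, a transcriptional coregulator, rose by 0.52 (SE 0.042). The mitotic cyclin gene Ccnb1 completes the group and is described with the cell cycle.

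The 8 well expressed genes with the largest fall encode secreted and surface proteins of macrophages and one small GTPase. Mmp19, a secreted metalloproteinase (chr10:128790910-128800824), had 186, 178 and 163 CPM in control and 88.6, 90.1 and 83.4 CPM in irradiated libraries (-1.01, SE 0.045, edgeR adjusted p = 4.7e-22). A gene on the other strand covers 22.3% of its exonic bases, and whether the counting used the strand is not stated in the labels. Igf1, the growth factor that microglia supply to neurons and oligodendrocytes (chr10:87858265-87937042), had 297, 289 and 289 CPM in control and 152, 156 and 152 CPM in irradiated libraries (-0.93, SE 0.035). Its 6 values formed tight groups at nearly a 2-fold distance. Lyz2, lysozyme, fell from 984 ± 63.1 to 517 ± 32.5 CPM (mean ± SD, n = 3), and Cybb, the catalytic subunit of the phagocyte NADPH oxidase, from 861 ± 18.6 to 498 ± 7.53 CPM. Cd33, a sialic acid-binding inhibitory receptor, fell by 0.85 (SE 0.035), Rab7b, a GTPase of late endosomes, by 0.86 (SE 0.042) and Ptpre, a tyrosine phosphatase, by 0.82 (SE 0.043). Lilrb4a, an inhibitory receptor, had the widest spread of the 8, with 526, 493 and 578 CPM in control and 347, 282 and 285 CPM in irradiated libraries (-0.81, SE 0.11, edgeR adjusted p = 0.00097). It shares 35.3% of its exonic bases with another gene on the same strand, so its value is uncertain. The irradiated libraries given triol lay on the same side of the controls in all 16 genes: C3 stood at 142, 151 and 157 CPM there and Igf1 at 159, 164 and 153 CPM.

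**Figure D2:**
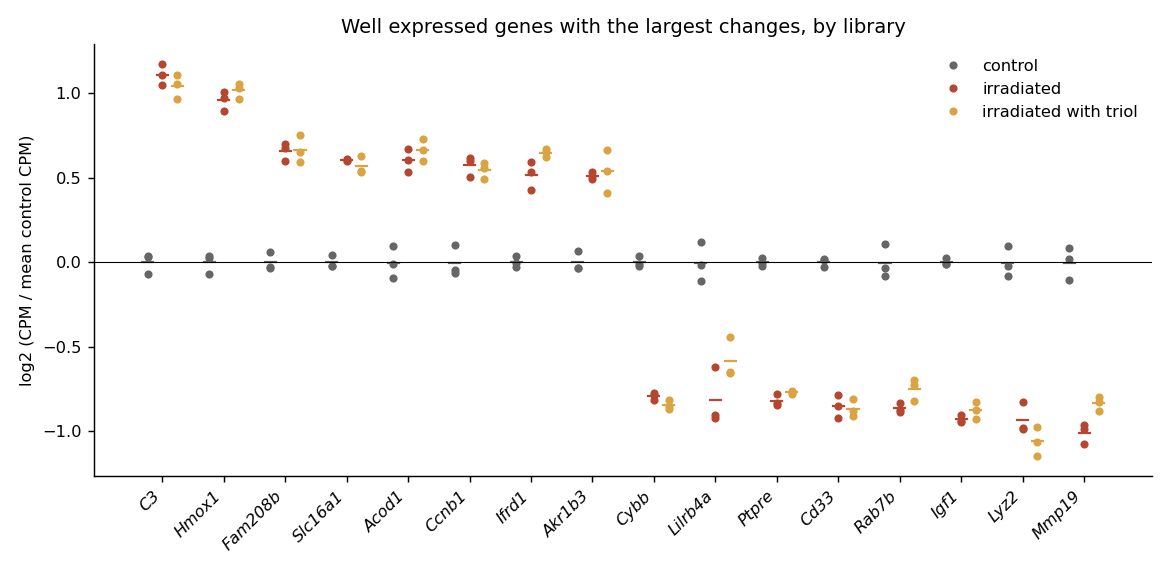
Each point is 1 library and each short line a group mean, plotted as log2 of the CPM over the mean control CPM, for the 8 well expressed genes with the largest rise and the 8 with the largest fall. The genes were picked among those whose control and irradiated libraries do not overlap. The libraries given triol do not overlap the controls in any of the 16 genes either, and Lilrb4a shows the widest spread.

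Moderate changes, between 0.25 and 1 on the log2 scale, made up 943 rises (8.52% of the tested genes outside the lists) and 1263 falls (11.4%). Here too the scaling set the balance, with 1148 and 1041 under upper quartile scaling, 1195 and 998 under library totals and 1102 and 1008 under the GC correction. Among genes of 10 to 100 CPM, the 5 rises with the smallest p were led by Cpt1a, which brings long-chain fatty acids into mitochondria (chr19:3322334-3385733). It had 29.3, 29.8 and 25.5 CPM in control and 56.3, 56.5 and 54.4 CPM in irradiated libraries (0.98, SE 0.063, edgeR adjusted p = 9.1e-17). Mcm10, which starts DNA replication forks (chr2:4989714-5012791), had 64.96, 66.4 and 65.9 CPM in control and 106, 114 and 104 CPM in irradiated libraries (0.71, SE 0.047). Groups that did not overlap were a condition for naming the moderate rises and falls. Ehd2, an ATPase of caveolae, rose by 0.88 (SE 0.072), Trim59, a ubiquitin ligase, by 0.62 (SE 0.052), and Ppa1, the cytosolic pyrophosphatase, by 0.57 (SE 0.047).

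The 5 moderate falls with the smallest p were genes of the cell surface and of lipid breakdown. Kcnj2, the inward rectifier potassium channel Kir2.1 (chr11:111066164-111076821), had 128, 113 and 119 CPM in control and 70.4, 65.5 and 63.3 CPM in irradiated libraries (-0.85, SE 0.049, edgeR adjusted p = 3.5e-18). St8sia4, which adds polysialic acid to surface proteins, had 103, 105 and 106 CPM in control and 60.9, 62.5 and 61.6 CPM in irradiated libraries (-0.76, SE 0.045). In both genes the fall was far beyond the spread within either group, which the choice by the smallest p favours. Vsir, the checkpoint receptor VISTA, fell by 0.75 (SE 0.047), Cd84, a receptor of the SLAM family, by 0.70 (SE 0.051), and Acox3, a peroxisomal oxidase, by 0.79 (SE 0.058).

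Gene lists show how these changes were distributed over cell functions. Counts for each list are read beside the background of 22.1% risen and 22.2% fallen, and beside the median of 0.0067 over all tested genes. Where the balance of a list's calls or the sign of its median turned in any of 17 other settings, at least 1 such setting is given beside it. The lists were not tested as sets.

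Genes that build ribosomes moved in 1 direction. Of 63 tested ribosome biogenesis genes 54 rose and 0 fell, 62 had a higher value, and the median was 0.27. Ncl, nucleolin, which serves early ribosomal RNA processing, had 1520, 1506 and 1654 CPM in control and 2167, 2040 and 2103 CPM in irradiated libraries (0.43, SE 0.031). Nolc1, a nucleolar chaperone, had 293, 298 and 307 CPM in control and 421, 407 and 416 CPM in irradiated libraries (0.47, SE 0.031, edgeR adjusted p = 1.7e-16). Utp4, a part of the small subunit processome, rose by 0.47 (SE 0.036). None of the 3 genes had overlapping groups, but they were named for the smallest p of the list, which favours such separation. Over all tested genes the groups did not overlap in 50.7%. The summed level of the list was 10020 to 10540 RPM (reads per 1000000 reads of the library, without TMM) in control and 12650 to 13090 RPM in irradiated libraries.

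Ribosomal proteins themselves moved less. Of 82 tested, 24 rose and 3 fell, with a median of 0.073, and 55 did not pass the test. Rplp1, of the ribosomal stalk, had 379, 366 and 358 CPM in control and 419, 417 and 406 CPM in irradiated libraries, a step of 0.17 (SE 0.031). Rpl3 fell by 0.17 (SE 0.027). Of 51 translation initiation factors 21 rose and 5 fell, with a median of 0.064. Eif2s3x, the X-linked gamma subunit of the factor that brings the initiator tRNA, rose by 0.27 (SE 0.030), and Eif2ak4, the amino acid sensing kinase GCN2, fell by 0.29 (SE 0.040). Aminoacyl-tRNA synthetases had no clear balance, with 3 of 22 risen and 5 fallen, and these numbers turned with the scaling (5 and 4 under library totals). Of 30 ATF4 target genes, which serve amino acid supply under stress, 8 rose and 10 fell (11 and 8 with the GC correction). Slc7a11, the cystine transporter, rose by 0.50 (SE 0.036), and Psat1, of serine synthesis, fell by 0.18 (SE 0.031).

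RNA processing and protein folding in the cytosol stood on the rising side. Of 54 core spliceosome genes 23 rose and 1 fell, with a median of 0.11, led by Sf3b4 (0.34, SE 0.043). Of 27 nuclear pore genes 15 rose and 1 fell, with a median of 0.12. Nup153 rose by 0.21 (SE 0.034), from 266 ± 8.36 to 308 ± 7.79 CPM. Nup210l, a relative of a pore membrane protein, rose from 2.59 ± 0.116 to 6.24 ± 1.24 CPM (mean ± SD, n = 3). SR and hnRNP splicing proteins were divided, with 8 of 36 risen and 6 fallen, and without control replicate 2 the numbers were 5 and 7. Of 33 chaperonin and heat shock genes 22 rose and 0 fell, with a median of 0.14. Cct3, a subunit of the chaperonin that folds actin and tubulin, rose from 561 ± 7.66 to 738 ± 7.16 CPM (0.40, SE 0.029). Of 35 proteasome subunits 11 rose and 3 fell, with a median of 0.048.

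The secretory path stood on the opposite side. Of 65 genes for translocation, glycosylation and quality control in the endoplasmic reticulum 35 fell and 3 rose, with a median of -0.14. Edem1, which marks misfolded glycoproteins for disposal, had 777, 775 and 751 CPM in control and 526, 539 and 541 CPM in irradiated libraries (-0.52, SE 0.029, edgeR adjusted p = 1.3e-18). P4hb, protein disulfide isomerase, had 817, 804 and 763 CPM in control and 614, 638 and 629 CPM in irradiated libraries (-0.34, SE 0.030). Both genes were named for a small p, so a fall beyond the replicate spread was part of the choice. Of 45 genes for the COPI and COPII vesicle coats and their cargo receptors 23 fell and 2 rose, with a median of -0.097. Copa, the alpha subunit of the COPI coat, fell from 378 ± 8.60 to 305 ± 1.53 CPM. Kdelr3, one of the receptors that return proteins to the endoplasmic reticulum, rose from 1.45 ± 0.244 to 3.57 ± 0.602 CPM, a rise at a low level in a list that mostly fell. Of 44 Rab GTPases, switches of membrane traffic, 16 fell and 6 rose, with a median of -0.087.

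Lysosomal genes fell in part. Of 59 hydrolases and membrane proteins of lysosomes 31 fell and 6 rose, with a median of -0.14. Cd68, a membrane glycoprotein of macrophage lysosomes, had 848, 855 and 785 CPM in control and 646, 658 and 628 CPM in irradiated libraries (-0.36, SE 0.031). Gusb, the hydrolase beta-glucuronidase, fell by 0.31 (SE 0.030). Against the list, Ctsl, the protease cathepsin L, had 1126, 1060 and 1075 CPM in control and 1490, 1460 and 1413 CPM in irradiated libraries (0.42, SE 0.029, edgeR adjusted p = 6.7e-16). Of 23 genes of the vacuolar proton pump and its regulators 12 fell and 0 rose, with a median of -0.10, and Atp6v1g1 fell by 0.27 (SE 0.044). Autophagy genes had no stable balance, with 8 of 43 risen and 10 fallen, against 10 and 8 under library totals. Sqstm1, an autophagy receptor, rose by 0.16 (SE 0.030), and Tfeb, a transcription factor of lysosomal genes, fell by 0.44 (SE 0.088).

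Of 46 genes for sphingolipid and phospholipid metabolism 27 fell and 4 rose, with a median of -0.15. Cerk, ceramide kinase, had 280, 270 and 263 CPM in control and 212, 213 and 220 CPM in irradiated libraries (-0.33, SE 0.034). Lpcat1, which reacylates lysophosphatidylcholine, fell by 0.36 (SE 0.043), while Chka, choline kinase, rose by 0.39 (SE 0.056). Of 27 glycolytic genes 10 fell and 4 rose, with a median of -0.066. Aldoc, an aldolase, fell from 149 ± 1.70 to 106 ± 5.43 CPM and Hk3, a hexokinase of myeloid cells, from 420 ± 12.3 to 327 ± 16.1 CPM. The lactate transporter Slc16a1 was the strongest rise on that list. Of 28 citric acid cycle genes 11 fell and 4 rose, with a median of -0.022, which turned to 0.013 under library totals. Of 85 nuclear genes of the respiratory chain 70 did not pass the test, 6 rose and 9 fell, a balance that turned to 11 and 6 under library totals. Single libraries moved these numbers too, to 16 and 8 without control replicate 1, 1 and 7 without control replicate 2, 4 and 14 without control replicate 3, and 4 and 12 without irradiated replicate 1. Of the 13 mitochondrially encoded genes 3 fell, by 0.14 each, and 0 rose.

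More genes of phagocytosis fell than rose. Of 38 phagocytic and Fc receptors with their adaptors 23 fell and 6 rose, with a median of -0.25. The microglia and macrophage markers fell beside them, Cx3cr1 from 32.7 ± 1.51 to 14.2 ± 0.843 CPM (-1.21, SE 0.086). The part of the share or state of such cells in these falls was not tested. Sirpa, the receptor for the CD47 signal that restrains phagocytosis, had 1161, 1192 and 1144 CPM in control and 762, 802 and 801 CPM in irradiated libraries (-0.56, SE 0.029, edgeR adjusted p = 8.3e-20). Itgb2, the integrin beta chain of complement receptor 3, had 213, 219 and 205 CPM in control and 155, 158 and 150 CPM in irradiated libraries (-0.46, SE 0.036). Cd93 fell by 0.49 (SE 0.039). Cd36, a scavenger receptor that binds oxidised lipids, moved the other way, from 171 ± 7.75 to 230 ± 10.9 CPM (0.43, SE 0.039). Of 71 actin assembly genes 31 fell and 6 rose, with a median of -0.11. Vim, the intermediate filament vimentin, had 3104, 3048 and 2813 CPM in control and 2234, 2286 and 2169 CPM in irradiated libraries (-0.42, SE 0.030), and Ezr, which links actin to the membrane, rose by 0.32 (SE 0.040).

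Complement genes moved in both directions. Of 14 tested 5 rose and 7 fell. The median was -0.20, but 0.060 with no filter on low counts. C1qc, a chain of the first component, moved in the opposite direction to C3 and fell from 3.56 ± 0.786 to 1.47 ± 0.462 CPM. Among 29 semaphorins, plexins, ephrins and their receptors, which guide cell contacts, 10 fell and 6 rose. Sema4d had 389, 387 and 360 CPM in control and 254, 267 and 250 CPM in irradiated libraries (-0.56, SE 0.036). Nrp1, a receptor for semaphorins, fell by 0.57 (SE 0.043), and Sema5a rose by 0.79 (SE 0.13). The median of this list, -0.021, turned to 0.013 under library totals.

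**Figure D3:**
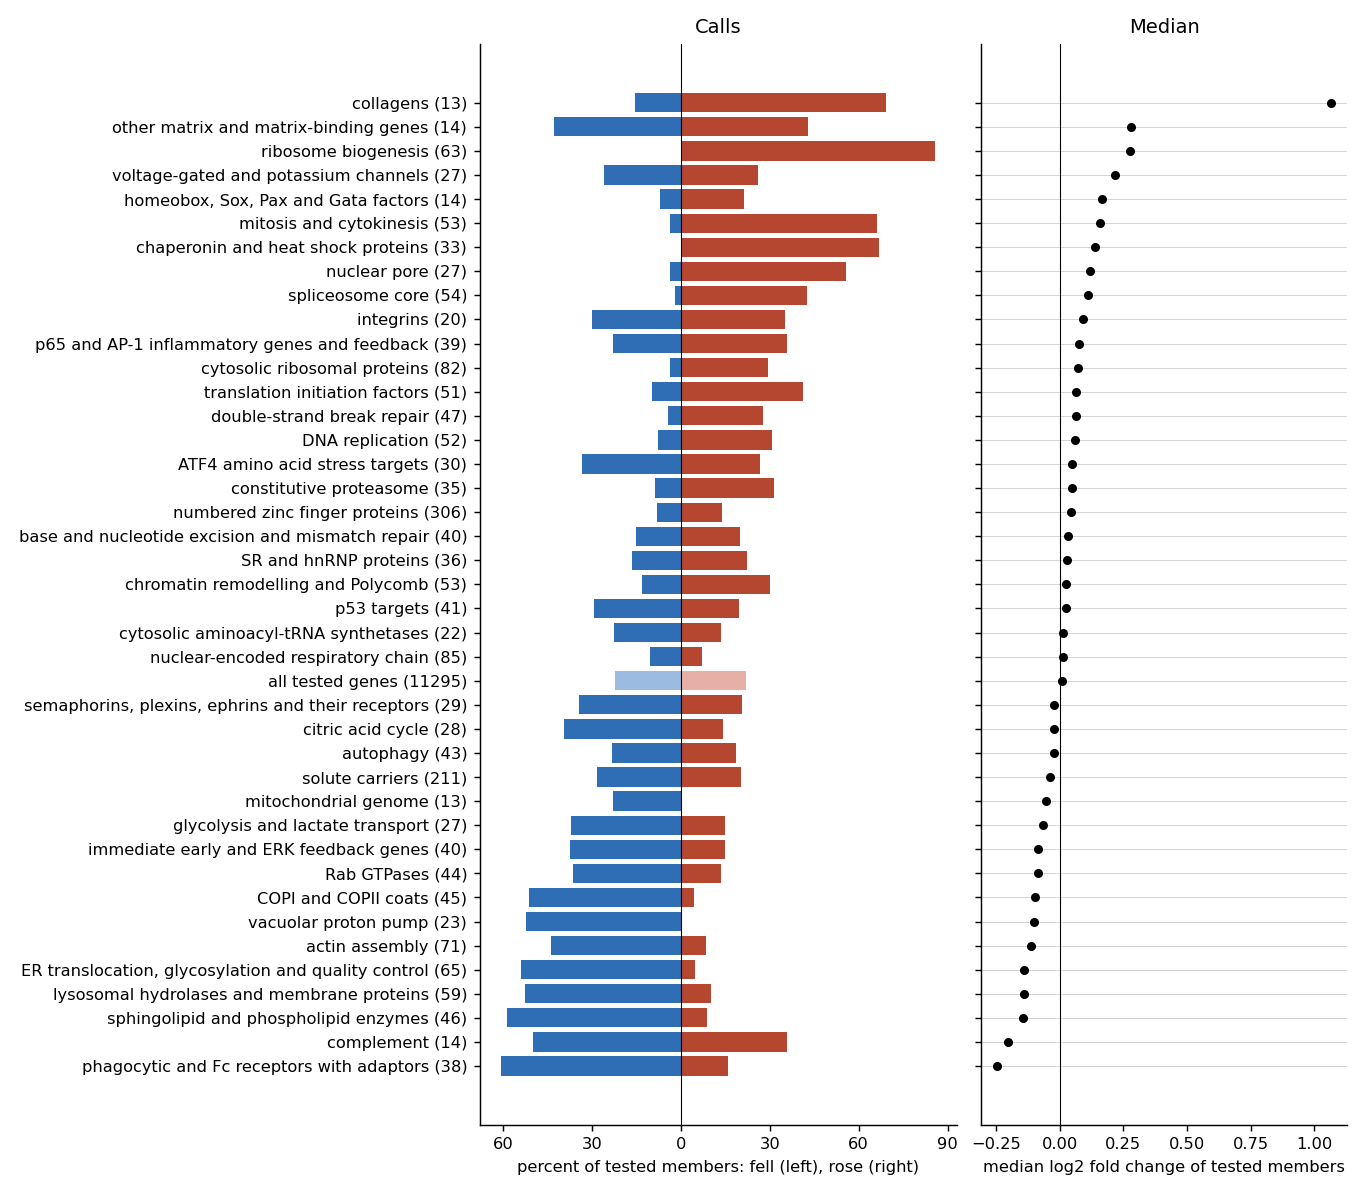
Left, the percent of tested members of each list that fell (left of 0) and rose (right of 0), with the number tested in brackets. Right, the median log2 fold change of the tested members. Pathway and family lists with at least 10 tested genes are ordered by the median, with all tested genes in pale bars and cell type markers not plotted. Ribosome biogenesis, heat shock and mitosis lists hold few or no falls, and the phagocytic, sphingolipid, lysosomal and endoplasmic reticulum lists lie at the other end.

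Genes of growth signalling and inflammation were mixed. Of 40 immediate early genes and feedback inhibitors of ERK 15 fell and 6 rose, with a median of -0.084. Dusp7, a phosphatase that switches ERK off, had 103, 105 and 93.3 CPM in control and 68.0, 63.7 and 64.3 CPM in irradiated libraries (-0.62, SE 0.049). Fos, a subunit of the transcription factor AP-1, had 55.9, 51.1 and 49.1 CPM in control and 33.6, 36.2 and 36.1 CPM in irradiated libraries (-0.56, SE 0.063). Dusp5, a nuclear ERK phosphatase, rose by 0.51 (SE 0.078). Of 39 inflammatory genes of the p65 and AP-1 type 14 rose and 9 fell, with a median of 0.076. Icam1, the adhesion molecule that leukocyte integrins bind, had 39.1, 37.8 and 39.6 CPM in control and 52.5, 58.7 and 58.2 CPM in irradiated libraries (0.54, SE 0.060). Saa3, an acute phase protein, rose from 1.47 ± 0.110 to 5.08 ± 0.570 CPM (1.80, SE 0.21), and Malt1, a signalling protease, fell by 0.41 (SE 0.044).

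DNA repair genes moved little. Of 47 genes for double-strand break repair 13 rose and 2 fell, with a median of 0.063, and 32 did not pass the test. Xrcc5, which encodes the Ku80 subunit that binds broken ends, had 35.6, 33.95 and 34.3 CPM in control and 49.99, 53.9 and 49.1 CPM in irradiated libraries (0.56, SE 0.060, edgeR adjusted p = 2.7e-10). Exo1, an exonuclease that trims ends, had 25.4, 28.6 and 31.3 CPM in control and 41.0, 41.6 and 42.5 CPM in irradiated libraries (0.55, SE 0.069). Rad51d fell by 0.27 (SE 0.085). Of 40 genes of base and nucleotide excision and mismatch repair 8 rose and 6 fell, and without irradiated replicate 1 the numbers were 6 and 8. Msh3, of mismatch repair, rose by 0.62 (SE 0.067), and Ercc6, of transcription-coupled repair, fell by 0.44 (SE 0.045). The p53 target list was divided, with 8 of 41 risen and 12 fallen and a median of 0.024. With the GC correction the numbers were 12 and 11. Of 52 DNA replication genes 16 rose and 4 fell, with a median of 0.060. Mcm3, of the replicative helicase, rose by 0.25 (SE 0.033), and Rfc2, of the clamp loader, fell by 0.46 (SE 0.053).

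Of 53 genes of mitosis and cytokinesis 35 rose and 2 fell, with a median of 0.16. Ccnb1 had 227, 230 and 254 CPM in control and 359, 336 and 364 CPM in irradiated libraries (0.57, SE 0.038). Cdc20, which switches on the anaphase-promoting complex, had 137, 136 and 139 CPM in control and 171, 182 and 184 CPM in irradiated libraries, and Ube2c, its ubiquitin-conjugating enzyme, had 169, 170 and 170 CPM in control and 221, 214 and 215 CPM in irradiated libraries. All 3 genes rose with no overlap of the groups. That was a condition for naming Ccnb1 among the largest rises, and the choice of list members by the smallest p favours it. A gene on the other strand, itself not tested, covers 22.8% of the exonic bases of Ube2c. Promoters of mitotic genes are known for CCAAT boxes, bound by NF-Y, near a cell cycle homology region, TTTGAA. The 250 bases before the RefSeq start were searched on both strands for these letters, chosen with the results known. The window held CCAAT in 32 of 43 mitotic genes with an entry (74.4%) against 40.9% of the 8966 tested genes with an entry and 37.5% of all entries. It held TTTGAA in 17 of the 43 (39.5%) against 12.8% of tested genes and 18.3% of all entries. A match is a description of the letters and not a site of binding. The windows of the 3 leading genes are shown because their boxes lie close together. Each is 100 of the 250 bases before the start on the gene's strand (RefSeq, GRCm38.p6), with matches in capitals. The 250 bases of Ccnb1 held 2 CCAAT matches and no TTTGAA. Those of Ube2c held 7 matches to these motifs, and 3 lie in the bases shown. ATTGG and TTCAAA are the same motifs read on the other strand.
Ccnb1, chr13:100786529-100786628, minus strand: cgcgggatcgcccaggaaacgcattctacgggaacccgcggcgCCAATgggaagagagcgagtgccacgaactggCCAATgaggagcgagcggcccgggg
Cdc20, chr4:118437344-118437443, minus strand: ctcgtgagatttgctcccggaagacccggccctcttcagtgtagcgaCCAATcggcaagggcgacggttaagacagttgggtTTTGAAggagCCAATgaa
Ube2c, chr2:164769826-164769925, plus strand: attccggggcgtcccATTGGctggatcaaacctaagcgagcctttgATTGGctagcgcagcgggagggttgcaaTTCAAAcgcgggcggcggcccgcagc

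Another motif, chosen with the results known, was searched for the phagocytic list. AGGAAGT, a core of sites for the myeloid factor PU.1 and other ETS factors, was in the window of 8 of 30 of its genes with an entry (26.7%), against 9.22% of tested genes and 8.80% of all entries. The share was 17.7% in the interferon and histone lists and 14.5% in the ribosome biogenesis list, and the difference between lists was not tested. Of the fallen list members with this match, Cd300ld, a receptor of myeloid cells, had the smallest p. It had 97.8, 103 and 88.7 CPM in control and 75.2, 81.0 and 75.5 CPM in irradiated libraries (-0.32, SE 0.050). Its 250 bases hold 2 matches, and 1 lies in the 100 bases shown.
Cd300ld, chr11:114989898-114989997, minus strand: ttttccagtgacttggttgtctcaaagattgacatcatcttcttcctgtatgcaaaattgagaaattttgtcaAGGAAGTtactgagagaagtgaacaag
Among the ribosome biogenesis genes, the E-box CACGTG was in 5 of 55 windows (9.09%), against 10.1% of tested genes.

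Matrix genes, channels and lineage factors are mostly silent in microglia, and here large relative rises came from low levels. Of 44 collagen genes 13 passed the filter, with 9 risen and 2 fallen. Members of such lists that passed through the irradiated groups had to differ, so these counts describe the tested genes alone. Col18a1, a basement membrane collagen, had 2.38, 2.18 and 2.15 CPM in control and 4.86, 5.21 and 3.99 CPM in irradiated libraries (1.06, SE 0.19). Col4a2 rose from 0.310 ± 0.170 to 1.49 ± 0.349 CPM. The well expressed Col4a5, at 88.9 ± 1.26 CPM in control, fell to 76.1 ± 2.99 CPM. The summed level of all collagens was 114 to 118 RPM in control and 107 to 121 RPM in irradiated libraries, so the groups overlapped. The same contrast of levels stood in the channels. Of 138 voltage-gated and potassium channel genes 27 were tested, with 7 risen and 7 fallen. Cacnb3, a calcium channel subunit, rose from 2.75 ± 0.317 to 5.26 ± 1.06 CPM, while Kcnj2 at 120 CPM fell. In other matrix genes 6 of 14 rose and 6 fell. Mmp9, a gelatinase, rose from 2.15 ± 0.628 to 4.60 ± 1.04 CPM, and Spp1, osteopontin, one of the most abundant transcripts, had 6670, 6332 and 6396 CPM in control and 4642, 4396 and 4265 CPM in irradiated libraries (-0.54, SE 0.029).

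Some genes at a few CPM rose several-fold with no overlap between groups, which a choice by the smallest p favours. Tdrd9, a helicase that silences transposons in germ cells, had 1.16, 1.03 and 1.04 CPM in control and 5.27, 4.07 and 5.75 CPM in irradiated libraries (2.23, SE 0.23, edgeR adjusted p = 1.3e-10). It was 1 of 4 risen genes among 6 tested germline genes, and 0 fell. Of 13 tested olfactory and vomeronasal receptor genes 3 fell and 1 rose. The median of -0.097 turned to 1.09 with no filter on low counts, 1.04 with DESeq2, 0.019 without control replicate 1 and 0.024 without irradiated replicate 3. The genes that fell were expressed in control cells, with Olfr111 at 18.4, 16.0 and 18.6 CPM in control and 14.7, 11.8 and 11.04 CPM in irradiated libraries. Vmn2r97, a pheromone receptor gene, rose from 0.398 ± 0.114 to 1.81 ± 0.553 CPM. Neo1, the receptor neogenin for netrins and repulsive guidance molecules, was chosen after its values were seen. It had 21, 23 and 20 reads in control and 101, 119 and 136 reads in irradiated libraries (2.56, SE 0.19).

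Genes turned on from near zero are those with at most 3 reads in every control library. Of 9850 such genes outside the interferon and histone lists, 6177 had 0 reads in all 6 libraries and 53 passed the filter on reads. Of the 53, 52 rose. They passed through the groups in which they are high, so the count is no evidence of direction by itself. In 51 of the 52 every irradiated library was above every control library, and in 52 of 52 every library given triol was. The same choice nearly fixes this separation, so it is no support for the rises. Over all tested genes, which were not chosen for low control levels, the groups did not overlap in 50.7%, so these shares cannot be compared. The levels stayed low, with 0 to 36 reads in an irradiated library and means of 0.38 to 1.77 CPM. With no filter 4676 near-zero genes could be tested, and 326 rose (6.97%). Over all 16729 genes of that fit 2563 rose and 2602 fell. A gene chosen for few control reads can hardly fall, so the 326 alone give no direction either. The mirrored set was near empty: of 9119 genes with at most 3 reads in every irradiated library 2 were tested, and 0 fell by edgeR, DESeq2 or limma, or at an unadjusted p under 0.05. With no filter 3 of 3945 fell (0.076%).

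The 10 turned-on genes with the highest irradiated level include genes best known from endothelium, neurons, muscle and epithelia. Aoc3, an amine oxidase of endothelium and fat (chr11:101330605-101341938), had 0, 0 and 1 reads in control and 29, 18 and 31 reads in irradiated libraries. The ratio was 82.9, with a 95% counting interval of 14.4 to 3310 (edgeR adjusted p = 1.1e-09). Tubb3, the beta tubulin of neurons (chr8:123411424-123422015), had 2, 2 and 0 reads in control and 29, 16 and 30 reads in irradiated libraries, a ratio of 19.9 with an interval of 7.46 to 75.0. L3mbtl1, a chromatin-binding protein with MBT repeats (chr2:162943472-162974522), had no read in any control library and 21, 24 and 15 reads in irradiated libraries. Against a floor of 3 reads over the control group, it was at least 21.2-fold higher. In all 3 genes the libraries given triol were high as well, with 16 to 20 reads for Aoc3, 23 to 44 for Tubb3 and 20 to 37 for L3mbtl1.

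Ampd1, the AMP deaminase of muscle, had 1, 0 and 1 reads in control and 36, 17 and 16 reads in irradiated libraries. Emp2, a tetraspan membrane protein of epithelia, had 1, 0 and 1 reads in control and 30, 15 and 16 reads in irradiated libraries. Sstr5, a somatostatin receptor, had 2, 0 and 3 reads in control and 18, 19 and 24 reads in irradiated libraries. In each of these the lowest irradiated library held at least 15 reads, in genes picked for a high irradiated level. The other 4 were Avil, an actin-binding protein of sensory neurons (3 reads in control in all against 56), Atp8b3, a lipid flippase (6 against 52), Smim24, a small membrane protein (5 against 52), and Camkk1, a calcium-dependent kinase (3 against 51). The remaining controls without a single read were those of Iqcn, Fat2, Tmprss2, Ermap, Mroh6 and Myh7b, each at least 8.5-fold higher. Intervals and floors cover counting error only.

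The windows before the starts of these genes were searched for the letters of the interferon-stimulated response element. The element, a GAAA, any 2 bases and a further GAAA, was in 0 of 36 turned-on genes with an entry, in 5 of 243 genes outside the lists that rose at least 2-fold (2.06%), and in 49 of 158 tested interferon and histone genes (31.0%). In all tested genes with an entry the share was 3.31%, and in all entries 3.46%. For so few windows 0 of 36 is close to these shares, and the genes of the interferon lists had been set aside beforehand. No match says only that these letters are not in the window. Of the named genes, Tubb3 and L3mbtl1 are shown, as 100 bases before the start, with no other motif marked.
Tubb3, chr8:123411453-123411552, plus strand: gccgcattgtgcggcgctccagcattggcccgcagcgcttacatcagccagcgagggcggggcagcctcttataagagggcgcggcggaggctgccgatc
L3mbtl1, chr2:162943365-162943464, plus strand: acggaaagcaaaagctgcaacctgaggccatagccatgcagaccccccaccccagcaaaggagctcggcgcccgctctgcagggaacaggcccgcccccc

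Reads of genes below the filter differed in the same direction. The 10512 untested genes outside the lists held 263, 280 and 278 RPM in control and 597.9, 561 and 548 RPM in irradiated libraries. The mean was 2.08 times as high after irradiation, with 273.5 ± 9.46 against 568.9 ± 26 RPM (mean ± SD, n = 3), with no overlap. The two-sided exact permutation test gave p = 0.1, the smallest that 3 against 3 libraries allow. Libraries given triol held 602 to 647 RPM. Of the 4335 untested genes with any read in the 6 libraries, 3508 had a higher summed RPM after irradiation and 827 a lower one. When every library was thinned to the total of the smallest, 12710 to 13004 genes were expected with at least 1 read in control and 13907 to 14048 in irradiated libraries.

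The difference was present in unrelated gene families. Untested olfactory and vomeronasal receptor genes, 1407 in number, went from 4.93 ± 0.458 to 9.45 ± 0.633 RPM, a ratio of 1.92. The ratio was 1.92 for channels, 2.10 for solute carriers, 2.30 for collagens, 2.43 for keratins and late epidermal genes, 2.93 for germline genes, 1.79 for homeobox and related factors and 1.65 for numbered zinc finger genes. By exonic length the ratio went from 1.76 in the shortest of 5 equal bins of untested genes to 2.38 in the longest. It was 1.54 for genes whose body overlaps that of a tested gene and 2.24 for those whose body does not. Of the 52 turned-on genes, 7 overlap a tested gene, and the 52 lie on 17 chromosomes. The part of overlap and length in these values was not tested.

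Levels of the markers of other cell types differed from list to list. Of 16 neuron markers 4 were tested and 3 rose, Tubb3, Nrgn and Camk2a. The median of the 4 was 1.79, but -0.37 over the members tested by DESeq2 or with no filter on low counts. The list held 25.1 to 27.8 RPM in control and 33.6 to 36.6 RPM in irradiated libraries, with Nefm and Grin1 at 0 in all 6. Its 12 untested members held 0.696 ± 0.407 RPM in control and 0.595 ± 0.164 RPM in irradiated libraries. Snap25, a synaptic protein, had 1, 5 and 1 reads in control and 0 in each irradiated library. None of the 10 epithelial markers was tested. They held 0 to 0.113 RPM in control and 0.329 to 0.360 RPM in irradiated libraries, with Epcam, Krt5, Krt14, Cldn4 and Esrp1 at 0. Of 11 endothelial markers 4 were tested, 2 rose and 1 fell. Pecam1 rose from 4, 1 and 2 reads to 24, 14 and 10 reads and Vwf, von Willebrand factor, from 51.9 ± 5.07 to 63.1 ± 3.68 CPM. Flt1, a receptor for vascular endothelial growth factors, fell from 330 ± 12.6 to 243 ± 3.98 CPM (-0.44, SE 0.034). The whole list held 375 to 391 RPM in control and 311 to 325 RPM in irradiated libraries, with Cldn5 and Emcn at 0. The 32 hepatocyte markers held 39.3 to 44.6 RPM in control and 47.2 to 54.4 RPM in irradiated libraries, with Apoc3, Fga and Cyp3a11 at 0. Of the 2027 control reads of this list, Hp held 321, 423 and 330 and Rbp4 206, 219 and 183. Alb, albumin, was not called, with 4, 11 and 6 reads in control and 24, 11 and 2 reads in irradiated libraries. Libraries given triol held 61, 65 and 82 reads of Alb. The 24 untested members of this list held 0.795 ± 0.945 RPM in control and 1.34 ± 0.53 RPM in irradiated libraries. In libraries given triol they held 7.87 ± 0.448 RPM, so low counts in those libraries include reads of liver genes. Control replicate 2 held 17 reads of Ttr, transthyretin, where the other 2 controls held 0. The part of other cells in the results was not tested.

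**Figure D4:**
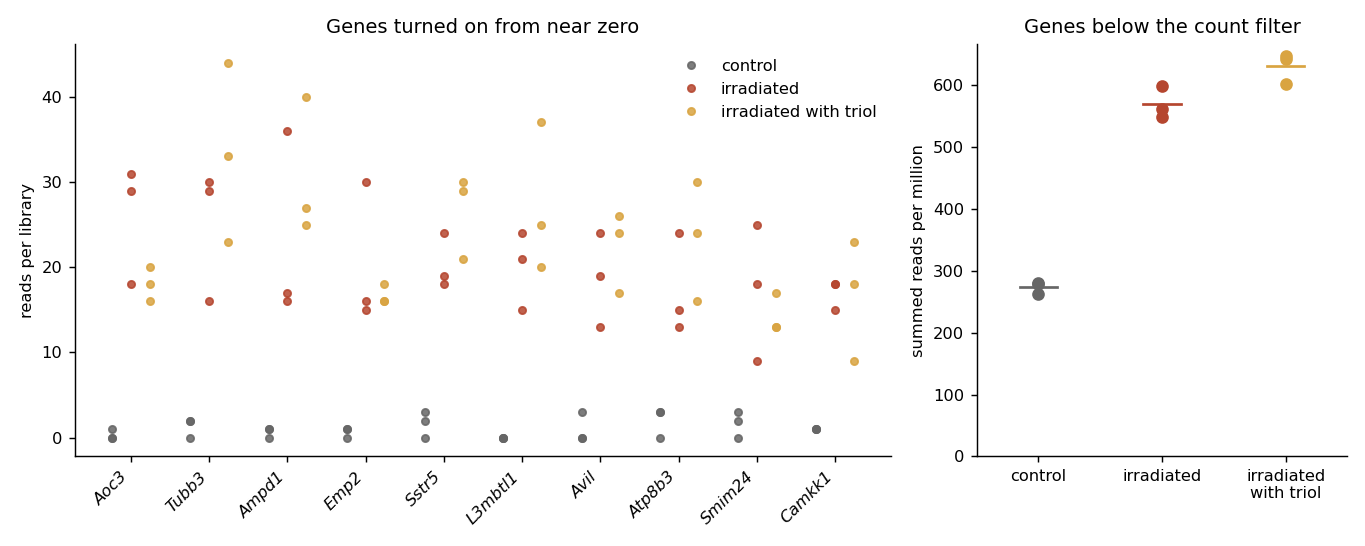
Left, reads per library for the 10 turned-on genes with the highest irradiated level, 3 points per group. Right, the summed RPM of the 10512 genes outside the lists that were below the filter, with points for libraries and lines for means. Control libraries hold at most 3 reads of each gene, and the sum is at 263 to 280 RPM in control against 548 to 597.9 RPM in irradiated libraries.

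Sequence features of the genes moved with the balance of calls. Among genes of at least 10 CPM outside the lists, those in the lowest of 5 equal bins of GC content rose in 25.9% and fell in 20.7%, and those in the highest bin rose in 11.5% and fell in 37.3%. The median log2 fold change went from 0.022 to -0.092 between these bins. Gene length moved with it less evenly. The bin of shortest genes rose in 17.3% and fell in 25.6%, the next bin in 23.3% and 23.8%, and the bin of longest genes in 16.2% and 34%. The mitochondrial share of reads was 3.49 to 3.64% in control and 3.33 to 3.46% in irradiated libraries. The 10 most abundant genes held 6.29 to 6.41% and 5.91 to 5.99%.

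**Figure D5:**
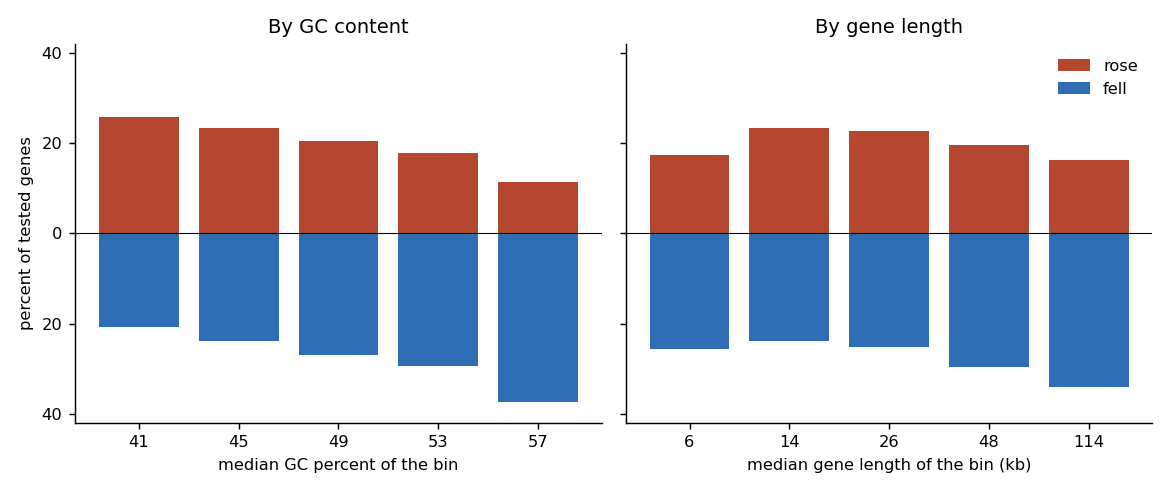
Percent of genes that rose (above 0) and fell (below 0) in 5 equal bins of exonic GC content (left) and gene length (right), for tested genes of at least 10 CPM outside the interferon and histone lists, labelled by the median of each bin. Falls go from 20.7% in the lowest to 37.3% in the highest GC bin, and reach 34% in the bin of longest genes.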

How the data were processed

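The authors deposited raw counts, whole numbers of reads for each gene and library. The submitters' processing notes name fastp 0.18.0, FastQC, STAR 2.7.1a, Subread 1.6.3 with featureCounts, and the build GRCm38. Per the labels' protocols, libraries were made with the NEBNext Ultra RNA kit from Trizol-extracted total RNA. No source used here gives the strand setting, the annotation release or how multiply mapped reads were handled. Genes on the other strand cover 17.3% of the exonic bases of Sqstm1 and 15.1% of those of Csf1r and of Rfc2. All 21951 gene identifiers matched protein-coding genes of GENCODE M21 on GRCm38, from which coordinates were taken.

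Groups were read from the titles. Genes were filtered with filterByExpr and tested with the two-sided quasi-likelihood test of edgeR 4.0.16 (R 4.3.3, TMM, robust, all 9 libraries in 1 fit, 6 residual degrees of freedom), with Benjamini-Hochberg adjustment over 11295 genes at 0.05. This test gave the adjusted p-values in the text. Replicate libraries differed by more than sampling noise, so none was counted as a copy. Named genes lay outside the interferon and histone lists and past the threshold. They were the 8 largest changes per direction at 100 CPM or more and the 5 smallest p per direction among moderate changes at 10 to 100 CPM. Both of these choices took only genes whose control and irradiated groups did not overlap. Also named were the 10 highest turned-on genes, and up to 3 plus 1 members per list. A few named genes are not reported here. The members and lists were chosen with earlier results of these data known. Ratios of turned-on genes use library totals over the tested genes after TMM scaling. They have 95% exact counting intervals, and a floor of 3 counts over the group for controls at 0. On counts simulated for this comparison with 11122 genes, the test found 18% of the changes of 1.1-fold, 62% at 1.2-fold, 82% at 1.5-fold and 100% at 2-fold, while 5.76% of its calls were false. Alternatives were other scalings and filters, DESeq2 1.42.0, limma 3.58.1 (voom), a fit of the 2 groups alone, a replicate block, a GC correction, other thresholds and leaving out each library.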

Additional observations from a re-analysis of the deposited data

How the results depend on the processing

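Counts of genes that rose and fell, over all genes, outside the lists, well expressed and moderate, stayed within 1.5 times of those reported in all 17 settings of scaling, filter, tool and left-out library. The direction of their balance did not: upper quartile scaling, library totals and the GC correction, chosen after seeing the data, gave more rises than falls outside the lists. With a mean of at least 50 CPM as the bound of well expressed genes, 1063 rose and 1533 fell, and with 200 CPM 284 rose and 399 fell, by the construction of the classes. The 52 genes turned on from near zero became 326 with no filter on low counts, 19 with a filter of 1 CPM in 3 libraries, 203 with DESeq2 and 21 with only the 2 groups fitted, settings that test different numbers of genes. With at most 1 or at most 10 control reads as the bound the number was 17 or 194. Leaving out 1 library gave 69 to 84, with 84 without control replicate 1 or control replicate 3 and 80 without irradiated replicate 2. Genes that fell to near zero, 0 as reported, numbered 3 with no filter, 4 at a bound of 10 reads, and 0 to 1 with 1 library left out, 1 each without control replicate 1 and control replicate 3. The cause of these shifts was not tested beyond the number of genes each setting tests.

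A pairing of the libraries by replicate number was not excluded. Deviations of same-numbered control and irradiated libraries correlated at 0.083, 0.12 and 0.13 across genes. Those of differently numbered libraries correlated at -0.188 to 0.092. A fit with the replicate number as a block called 2503 rises and 2502 falls, against 2498 and 2505 without it. Of 203 named genes, 198 kept direction and call in every setting that tested them and 0 turned, while 7 were not tested in at least 1 setting, because a stricter filter or the fit of only the 2 groups left them out. Among those that lost their call in at least 1 were Cspg4, Hp, Ndufaf8 and Rbp4. Below 1 CPM only changes of about 2-fold or more could be called at this depth.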
